A study of Mus musculus with 9 samples.

Results

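The cocaine library and the saline library of the nucleus accumbens, both collected 24 h after the last injection, were compared gene by gene. The genes compared were all those with a mean of at least 1 RPKM (reads per kilobase of gene model, scaled to the depth of the lane) over the 9 sequencing lanes of the study, which left 14051 of 21423 genes. The mice were adult male C57BL/6 animals of 2 to 5 months, injected intraperitoneally once a day for 7 days with saline (10 ml/kg) or with cocaine (10 or 20 mg/kg, with no dose assigned to any one sample in the labels). RNA of 8 mice was pooled for each library and each library was run in 3 lanes, so a group is 1 pooled library and its 3 values are technical runs. A withdrawal library, made 8 days after the last cocaine injection, was sequenced in the same way and served here only for the filter and for levels set side by side. No difference between saline and cocaine has a replicate check: the spread between lanes covers sequencing only, differences between mice cannot be seen, and no p-value is given.

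The nucleus accumbens is the ventral part of the striatum, where cortical, thalamic, hippocampal and amygdalar glutamate inputs meet dopamine from the midbrain. Most of its neurons are medium spiny neurons, inhibitory cells of which one class carries D1 dopamine receptors with substance P and dynorphin, and the other D2 dopamine and adenosine receptors with enkephalin. Cocaine blocks the dopamine transporter and so prolongs dopamine signalling, which in these neurons acts through cAMP, DARPP-32, calcium and the transcription factors CREB and AP-1.

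Lane totals were 12026754, 6359820 and 7620031 for saline and 7936088, 7348232 and 8935013 for cocaine. Correlations of log2(RPKM + 0.5) were 0.979 to 0.985 between lanes of 1 library and 0.967 to 0.974 between lanes of the 2 libraries. The saline library stood apart in its summed RPKM: 403628 to 409218 per lane, against 359542 to 365437 in cocaine and 358568 to 362339 in withdrawal. All 14 genes listed as markers of the accumbens passed the filter, as did the listed septal and hypothalamic and microglial genes, so passing it does not identify the tissue. The accumbens markers were at higher levels, with a sum of 2111 to 2213 RPKM in the saline lanes. The septal and hypothalamic list summed to 253 to 288 RPKM and the cortical one to 332 to 338 RPKM. Most of the accumbens sum came from Penk and Ppp1r1b.

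The libraries were close for most genes. The median difference, cocaine minus saline on the log2(RPKM + 0.5) scale, was -0.047 with quartiles of -0.23 and 0.16, and 71.6% of genes lay within 25% of equality. The difference was negative for 56.5% of all genes, the share to set beside counts of negative members below. A gene was called higher or lower when the lane means differed by at least 1.5-fold and no lane of one library overlapped a lane of the other. By this rule 411 genes were higher in cocaine (2.93% of those compared) and 338 lower (2.41%), 5.33% in all. Of these, 305 higher and 156 lower genes kept the call whichever lane was left out. Past 2-fold the split was more uneven, with 112 genes higher and 34 lower. Lanes alone did not overlap for 42.1% of genes. Since the filter uses a mean over all lanes, 66 of the 411 higher genes were under 1 RPKM in saline and 27 of the 338 lower genes under 1 RPKM in cocaine; such a gene entered through the libraries in which it was high and had to differ. The split depends on scaling: 505 higher and 230 lower with the median difference set to 0, and 538 and 204 with the 75th percentiles made equal, which moves the median of all genes to 0.019.

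**Figure D1:**
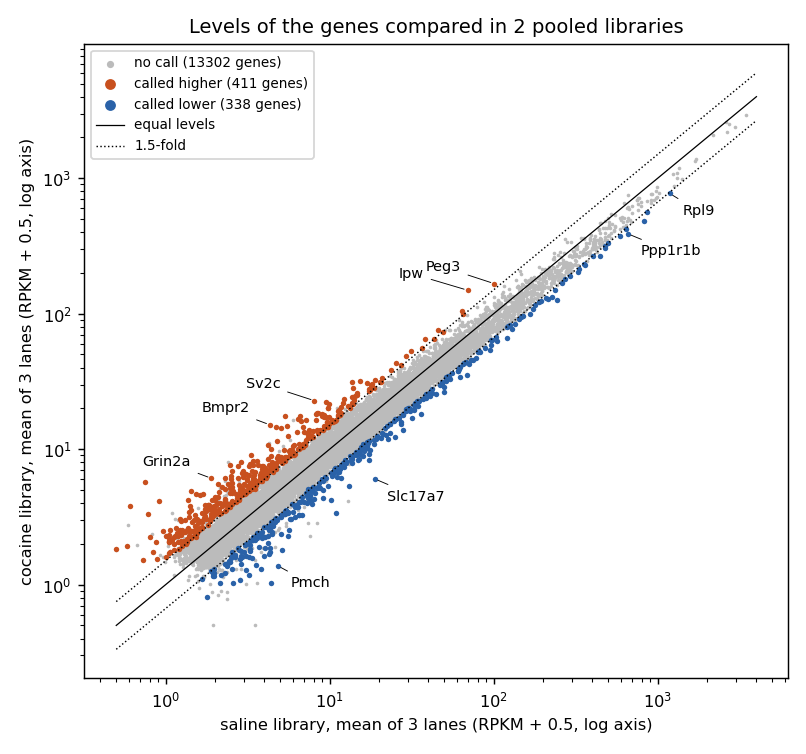
Mean RPKM + 0.5 over the 3 lanes of the saline library (x, log axis) and of the cocaine library (y, log axis) for the genes compared; the solid line marks equal levels and dotted lines 1.5-fold. The 411 genes called higher lie mostly at low and middle levels, and the most abundant genes lie below the line of equal levels.

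The largest increases at 3 RPKM or more, leaving out predicted genes, began with a growth factor receptor, a matrix protein and a glutamate receptor subunit. Bmpr2, a receptor for bone morphogenetic proteins, had 4.10, 3.30 and 4.06 RPKM in the saline lanes and 14.1, 15.0 and 14.8 RPKM in the cocaine lanes. Tnr encodes tenascin-R, an extracellular matrix protein of perineuronal nets, and went from 5.14, 5.12 and 4.18 to 17.7, 16.6 and 16.9 RPKM. Grin2a, the NMDA receptor subunit GluN2A, went from 1.19, 1.54 and 1.47 to 5.35, 5.94 and 5.51 RPKM. Each of these 3 genes was at least 3-fold apart between the closest lanes of the libraries, with log2 differences of 1.81 ± 0.09, 1.73 ± 0.09 and 1.69 ± 0.09 (± standard error from the lanes).

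Slc9a7, a sodium/proton exchanger of the trans-Golgi network, had 3.21, 1.91 and 3.31 RPKM in saline and 9.25, 7.72 and 8.55 RPKM in cocaine (1.47 ± 0.23). Ksr2, a scaffold of the Raf, MEK and ERK kinases, had 3.68, 4.03 and 3.45 RPKM against 10.4, 11.1 and 9.41 RPKM (1.36 ± 0.09). Klf12, a zinc finger repressor, had 2.10, 1.84 and 2.08 RPKM against 5.08, 6.29 and 6.05 RPKM (1.33 ± 0.10). These genes, Xkr4 (1.46 ± 0.13) and the ones above kept the call without any one lane. They also kept it when differences were centred among genes of like model length. For Bmpr2 the model (3507 bp) is much shorter than the longest GENCODE transcript (12899 bp), as it is for Tnr, Grin2a and Ksr2. For Slc9a7 and Xkr4 it is longer. Centring thus sets no check on transcript length for such genes.

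**Figure D2:**
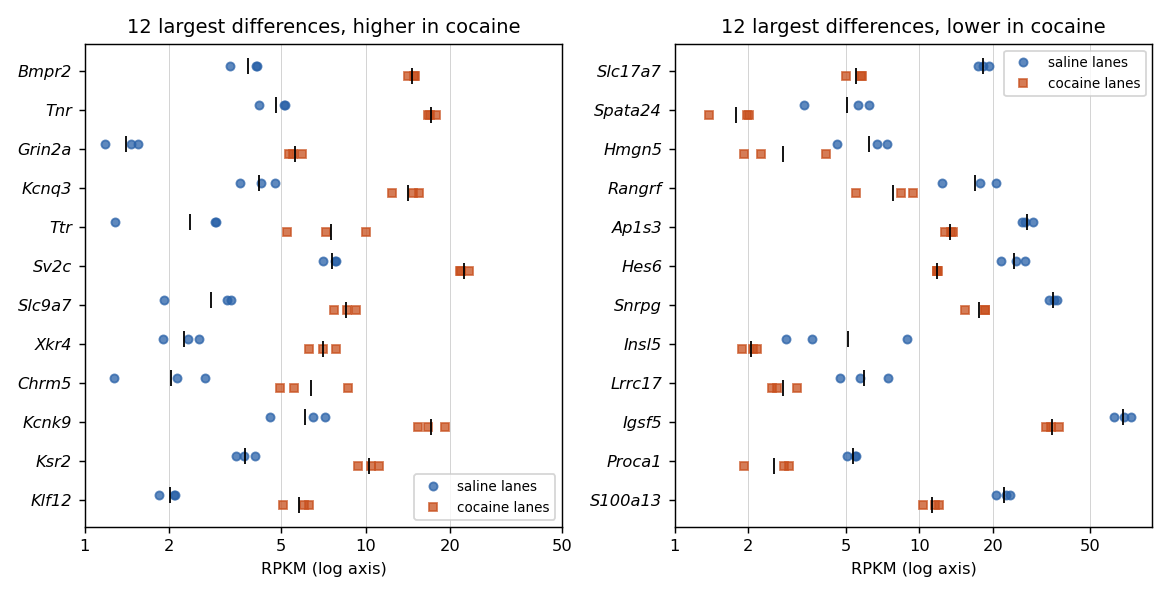
RPKM (log axis) in each of the 3 saline lanes (circles) and 3 cocaine lanes (squares) for the 12 largest called differences each way among genes averaging 3 RPKM or more; vertical ticks are means over lanes. No lane of one library overlaps a lane of the other, as the call requires, and the gap is wide for Bmpr2, Tnr and Grin2a and, among the lower genes, for Slc17a7, while Hmgn5, Insl5 and Ttr spread most between lanes.

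Potassium channel genes were higher in 10 of 70 tested members and lower in none, where 2.93% of all genes were higher and 2.41% lower. The same counts, 10 and 0, held after centring by length, and the family median was 0.15 (0.14 centred), against -0.047 for all genes. Kcnq3, a subunit of the M current that restrains repetitive firing, had 4.74, 3.58 and 4.24 RPKM in saline and 15.5, 14.7 and 12.4 RPKM in cocaine (1.65 ± 0.14). Kcnk9, the leak channel TASK-3, had 6.47, 4.55 and 7.15 RPKM against 19.2, 15.3 and 16.7 RPKM (1.44 ± 0.20). Saline and cocaine lanes were thus far apart for both subunits. Their gene models (2878 and 1209 bp) are much shorter than their longest GENCODE transcripts (11824 and 12300 bp). Centring set them among short genes and raised the differences to 1.79 and 1.72, so it is no check on transcript length for them.

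Kcng3, a modifier subunit that forms no channel on its own, was near the lowest levels in saline, at 0.223, 0.422 and 0.274 RPKM, and had 1.84, 1.09 and 2.32 RPKM in cocaine (1.45 ± 0.26). It is 1 of the 10 calls but passed the filter only through the libraries in which it was high. In all, 3 of the 10 calls were under 1 RPKM in saline. Both calcium-activated types had a member among the calls: Kcnma1, the BK channel, at 1.01 ± 0.15, and Kcnn3, a small-conductance SK channel, at 0.82 ± 0.04. Other calls were Kcnh5 (0.90), Kcnj6 (0.79), which encodes a G protein-gated inward rectifier, Kcna2 (0.67) and Kcna3. Kcna3 lost its call when 1 of 3 lanes was left out (0.62 in full, 0.54 without saline replicate 1, 0.53 without saline replicate 3 and 0.52 without cocaine replicate 3).

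Calcium channel genes had 2 higher and 0 lower among 22. Cacna1e, the pore subunit of R-type channels, had 8.88, 8.70 and 9.47 RPKM in saline and 21.3, 21.5 and 22.8 RPKM in cocaine (1.23 ± 0.05). Cacna1c, the pore of L-type Cav1.2 channels, had 4.90, 4.49 and 4.92 RPKM against 8.79, 8.22 and 11 RPKM (0.89 ± 0.13). Of 12 TRP channel genes, Trpm3 (1.19 ± 0.03) and Trpc5 (1.13 ± 0.18) were higher and none was lower. Sodium channel genes had no call among 10, with a median of 0.21 that fell to 0.038 after centring by length.

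Acetylcholine receptor genes had 3 higher of 8 tested and none lower. Chrm5, the M5 muscarinic receptor, had 2.67, 1.27 and 2.13 RPKM in saline and 8.66, 4.94 and 5.56 RPKM in cocaine (1.45 ± 0.34). Chrm2, the M2 receptor that acts as an autoreceptor on cholinergic cells, had 4.29, 2.63 and 3.20 RPKM against 6.15, 7.34 and 6.47 RPKM (0.91 ± 0.19). The nicotinic subunit Chrna7 was near the limit of the rule, at 0.60 ± 0.07, and lost its call without saline replicate 1 (0.57), without cocaine replicate 2 (0.54) and with a pseudocount of 1 (0.53).

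Monoamine receptor genes, which bind dopamine, serotonin, noradrenaline or histamine, had 4 higher and 1 lower of 24. The higher ones were the alpha-1A adrenergic receptor Adra1a (0.93 ± 0.19), the histamine H2 receptor Hrh2 (0.88 ± 0.20), and the serotonin receptors Htr2a (0.84 ± 0.19) and Htr1b (0.62 ± 0.14). The alpha-2B adrenergic receptor Adra2b was lower, with 2.05, 1.49 and 2.03 RPKM in saline and 0.733, 1.22 and 0.669 RPKM in cocaine (-0.79 ± 0.21). Adra2b averaged 0.874 RPKM in cocaine and passed the filter only through the other libraries. Htr1b lost the call without saline replicate 3 (0.56) and without cocaine replicate 1 (0.52). Ionotropic glutamate receptor genes had a single call, Grin2a, among 18 (median 0.18), and neither the 7 metabotropic glutamate nor the 16 GABA receptor genes had one (medians 0.22 and 0.17).

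Downstream of these receptors, enzymes that make or break down cyclic nucleotides had 2 higher of 26. Adcy9, an adenylyl cyclase, had 7.33, 6.52 and 7.23 RPKM in saline and 13.9, 13.4 and 13.1 RPKM in cocaine (0.89 ± 0.05), and Pde11a, which hydrolyses cAMP and cGMP, differed by 0.74 ± 0.11. No call was made among 17 protein kinase A and C genes, 17 RGS genes or 27 heterotrimeric G protein genes. Among 57 protein phosphatase subunit genes 0 were higher and 4 lower, and 1 of the 4, Ppp1r1b, kept its call whichever lane was left out. It encodes DARPP-32, the inhibitor of protein phosphatase 1 that D1 receptor signalling switches on, and had 643, 673 and 650 RPKM in saline and 404, 374 and 389 RPKM in cocaine (-0.75 ± 0.04).

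Guidance and adhesion families differed among themselves in their medians. Semaphorin and plexin genes, repellent cues and their receptors, had a median of 0.30 and 4 of 29 higher (Sema5a 0.78, Plxna1 0.71, Sema3g 0.69 and Plxna4 0.68). The Slit, Robo and netrin group had a median of 0.31 and 2 of 16 higher. Its repellent ligand Slit1 had 10.6, 10.4 and 11.4 RPKM in saline and 19.4, 17.2 and 18.9 RPKM in cocaine (0.75 ± 0.06), and the netrin receptor Dcc had 2.08, 2.13 and 1.81 RPKM against 3.54, 3.39 and 3.36 RPKM (0.65 ± 0.06). Centring by length lowered the medians to 0.16 and 0.20 and ended the calls of Sema5a (0.48), Plxna1 (0.50), Plxna4 (0.38) and Dcc (0.35), which are long transcripts. With a pseudocount of 1 the calls of Sema3g (0.50) and Dcc (0.56) ended, and Sema3g was under 1 RPKM in saline (mean 0.553 RPKM, SD over lanes 0.09 RPKM). Eph receptor and ephrin genes, another family of guidance cues, were negative in 13 of 18 members, with a median of -0.036 that turned to 0.031 with 75th-percentile scaling, and 1 higher, Epha6 (0.73 ± 0.16).

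Protocadherins, adhesion proteins by which neurons recognise each other, had 4 higher and 0 lower of 66, although their median was -0.014 and turned to 0.053 with 75th-percentile scaling. Pcdh7 had 9.83, 8.52 and 9.61 RPKM in saline and 19.6, 18.6 and 20.6 RPKM in cocaine (1.03 ± 0.07). Pcdh10 had 30.6, 31.0 and 30.7 RPKM against 53.5, 52.0 and 51.2 RPKM (0.75 ± 0.02, or 0.45 after centring by length, without a call). Pcdh11x differed by 0.83 ± 0.24. Pcdhb2 differed by 0.77 and lost its call without cocaine replicate 1 (0.55) and with a pseudocount of 1 (0.54); it was under 1 RPKM in saline (0.386 RPKM on average) and passed the filter through the other libraries. Of the 66 members 37 were negative, near the share of 56.5% among all genes.

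Bmpr2 was the only call among 26 BMP, activin and Smad genes, whose median was 0.27. Ankyrin and spectrin genes, the membrane skeleton of axons, were positive in 8 of 8 members with a median of 0.31, but centring by length brought it to 0.05 and ended the one call, Ank2 (0.69, then 0.39). Among 27 kinesin genes, which code for microtubule motors, Kif26b (1.11 ± 0.07) and Kif13b (0.71 ± 0.10) were higher.

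Synaptic vesicle genes of the synaptotagmin, SNARE and SV2 families had 3 higher and 0 lower of 38, with a median of -0.078. Sv2c, the vesicle protein typical of the basal ganglia, had 7.80, 7.87 and 7.06 RPKM in saline and 21.8, 21.7 and 23.4 RPKM in cocaine (1.5 ± 0.06). Syt10, a calcium sensor of regulated secretion, had 2.97, 2.90 and 2.88 RPKM against 6.69, 8.82 and 7.38 RPKM (1.24 ± 0.11), and Syt14 differed by 0.95 ± 0.23. All 3 calls were kept without any one lane and after centring by length.

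Groups of gene regulation had few calls, and some had medians well below 0. Spliceosomal Sm and LSm genes were negative in 22 of 24 members (median -0.34, or -0.14 after centring by length) with 3 lower, of which 2 kept the call whichever lane was left out. SR and hnRNP splicing factor genes were negative in 24 of 30 (median -0.22) with no call. Genes with initiation factor symbols were negative in 42 of 56 (median -0.20) with 2 higher and 2 lower. One of the higher ones, Eif2c2, which encodes Argonaute 2, the slicing protein of RNA interference, had 6.34, 6.27 and 6.04 RPKM in saline and 16.9, 14.1 and 15.8 RPKM in cocaine (1.26 ± 0.08). The initiation factor subunits Eif2s2 (-0.70 ± 0.08) and Eif5b (-0.67 ± 0.07) were lower. Of 18 histone deacetylase genes Hdac4 was higher (0.73 ± 0.11), and of 48 histone methylation genes the H3K4 methyltransferases Mll2 (0.82), Mll1 (0.77) and Mll3 (0.67) were. Centring by length ended the calls of Mll2 (0.52), Mll1 (0.47) and Mll3 (0.36). Zinc finger genes named Zfp, by far the largest group with 312 tested, had 5 higher and 6 lower (3 and 1 whichever lane was left out) and a median of -0.019 that turned positive with 75th-percentile scaling (0.045) and after centring by length (0.024).

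The most abundant genes called higher included 3 imprinted genes expressed from the paternal allele. Ipw, a non-coding RNA of the Prader-Willi region, had 69.1, 63.4 and 74.0 RPKM in saline and 146, 157 and 143 RPKM in cocaine (1.11 ± 0.07). Peg3 had 102, 101 and 98.3 RPKM against 165, 167 and 167 RPKM (0.73 ± 0.02, or 0.52 after centring by length, without a call). Peg10 had 64.0, 62.6 and 63.8 RPKM against 102, 105 and 105 RPKM (0.71 ± 0.02). The endocytic receptor gene Lrp1 differed by 0.75 ± 0.04 (0.45 after centring by length, without a call).

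Among genes lower in cocaine, Slc17a7 had the largest difference of those named at 3 RPKM or more. It encodes VGLUT1, the vesicular glutamate transporter of cortical and hippocampal neurons, and had 19.4, 18.2 and 17.4 RPKM in saline and 5.83, 5.01 and 5.76 RPKM in cocaine (-1.64 ± 0.08). Of the 10 cortical projection neuron genes tested, the other 9 had no call, and 5 of 15 were below the filter. With Slc17a7 included, 4 of the 10 were negative, and lanes were apart downward in 2 and upward in 5. Among all genes compared, lanes were apart downward for 23.9% and upward for 18.3%. The summed level of the tested genes was 332 to 338 RPKM in saline and 357 to 367 RPKM in cocaine. Since Slc17a7 is included in those sums, the summed level of the other 9 was higher, which the most abundant members weigh on most. The median of the list was 0.066 and turned to -0.064 after centring by length. The cortical content of the libraries was not tested.

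Igsf5, a junctional adhesion molecule gene, was the most abundant of the 12 largest decreases, with 68.9, 73.9 and 62.7 RPKM in saline and 34.8, 33.2 and 37.3 RPKM in cocaine (-0.95 ± 0.08). Ap1s3, a subunit of the AP-1 clathrin adaptor of the trans-Golgi network, had 26.5, 27.0 and 29.3 RPKM against 13.5, 12.7 and 13.7 RPKM (-1.02 ± 0.06). Hes6, a helix-loop-helix regulator of neuronal differentiation, had 24.8, 21.7 and 27.0 RPKM against 11.9, 11.8 and 11.8 RPKM (-1.01 ± 0.09). Lanes of the 2 libraries were well apart for all 3 genes.

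Snrpg, a core Sm protein of the spliceosome, had 35.6, 34.0 and 36.8 RPKM in saline and 15.4, 18.6 and 18.6 RPKM in cocaine (-1.0 ± 0.09). S100a13, a small calcium-binding protein, had 22.6, 23.5 and 20.6 RPKM against 12.0, 11.6 and 10.3 RPKM (-0.95 ± 0.08). The rest were Spata24 (-1.26 ± 0.28), Rangrf (-1.08 ± 0.30), Lrrc17 (-0.97 ± 0.20), Proca1 (-0.95 ± 0.16), Hmgn5 and Insl5. Hmgn5 (-1.08 ± 0.35) differed by -0.90 after centring by length, where its lanes overlapped. Insl5 (-0.99 ± 0.46) rested on 1 lane of 8.90 RPKM and fell short of the rule without saline replicate 2 (-0.55).

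Genes of protein synthesis and respiration differed downward by small amounts in nearly every member. Of 84 cytosolic ribosomal protein genes 84 were negative, with a median of -0.47, and 14 were lower (9 whichever lane was left out). Rps28 had 794, 831 and 852 RPKM in saline and 515, 478 and 456 RPKM in cocaine (-0.77 ± 0.06), and Rpl13a had 564, 598 and 608 RPKM against 372, 366 and 377 RPKM (-0.67 ± 0.04). Ribosomal protein genes have many near-identical pseudogenes, so these levels are uncertain. Mitochondrial ribosomal protein genes had a median of -0.35 with 74 of 77 negative and 8 lower, of which 2 kept the call without any one lane.

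Respiratory chain complex I genes had a median of -0.41 and 5 of 42 lower: Ndufc1 (-0.90), Ndufb2 (-0.81), Ndufa1 (-0.71), Ndufs6 (-0.68) and Ndufs5 (-0.65). ATP synthase genes had a median of -0.44 with 17 of 17 negative and 4 lower. The subunit gene Atp5h had 210, 216 and 218 RPKM in saline and 122, 127 and 136 RPKM in cocaine (-0.74 ± 0.05). Complexes II, III and IV had a median of -0.40 and 3 lower of 29, 1 of which kept the call without any one lane. Glycolysis genes were negative in 17 of 17 members (median -0.21) with no call, as were 18 of 20 aminoacyl-tRNA synthetase genes (median -0.25, no call).

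The direction of these medians was the same under every scaling, but their size and calls were not. After centring by length the medians were -0.24 for cytosolic ribosomal proteins, -0.20 for mitochondrial ones, -0.18 for complex I and -0.24 for ATP synthase, and the numbers lower were 1, 0, 3 and 0. Among the genes named, the calls of Rps28 (-0.57), Rpl13a (-0.51), Atp5h (-0.46), Ndufa1 (-0.50) and Ndufs6 (-0.47) ended. With 75th-percentile scaling 6 cytosolic and 3 mitochondrial ribosomal protein genes, 4 complex I genes and 1 ATP synthase gene were lower.

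**Figure D3:**
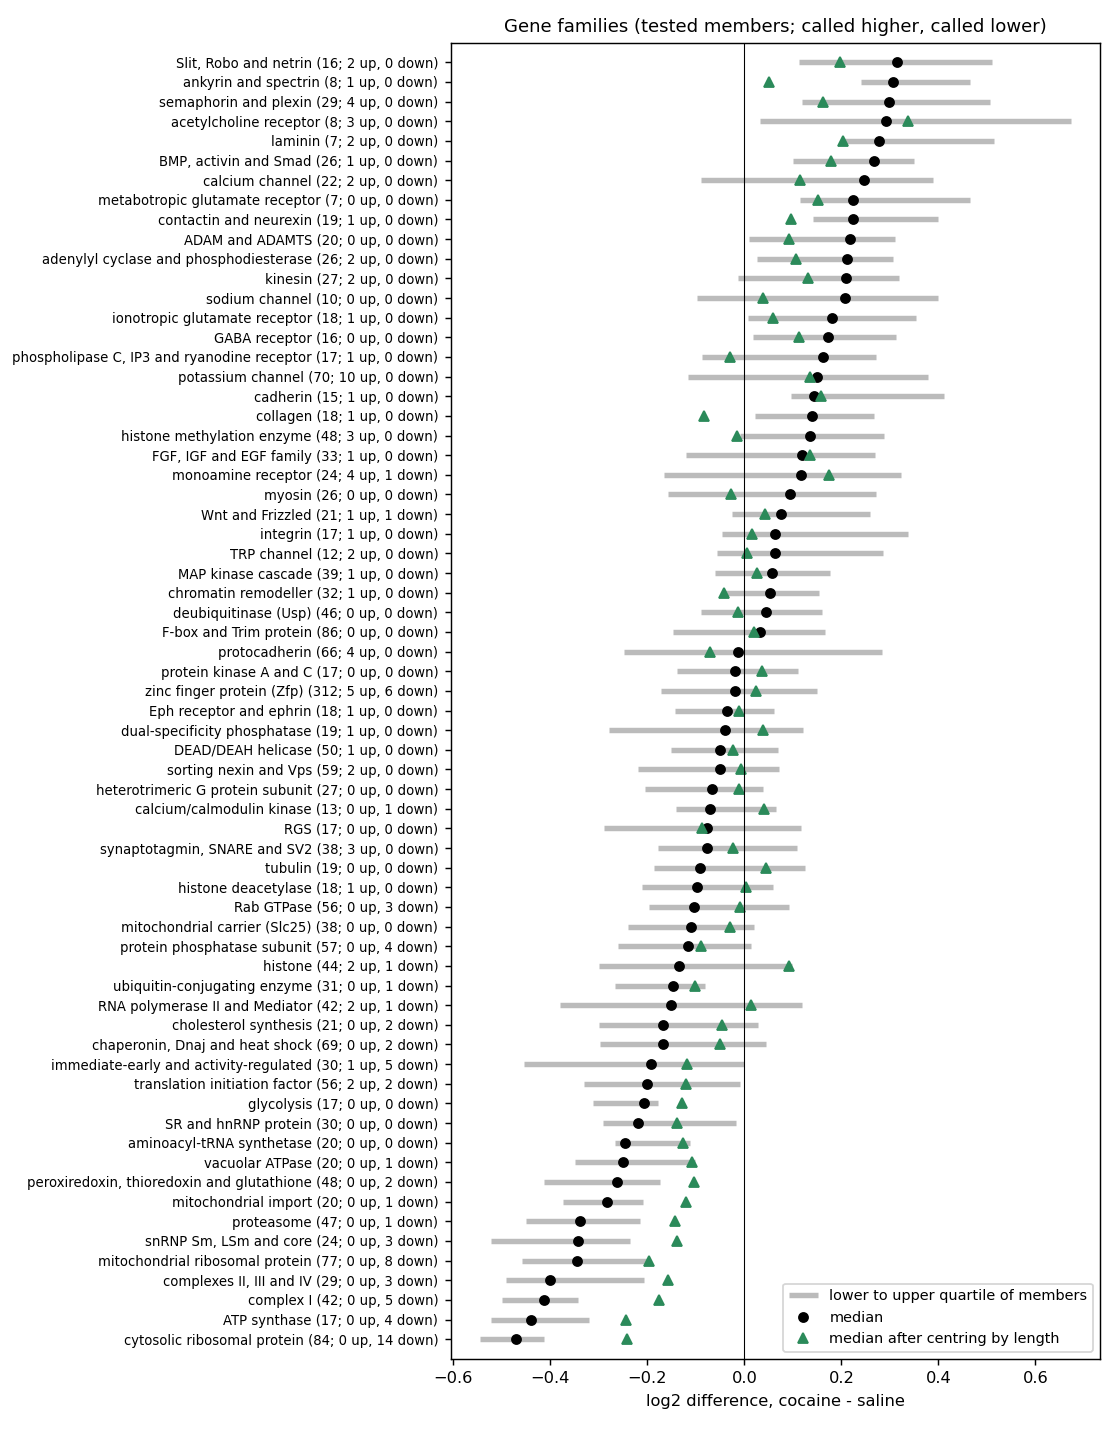
Median log2 difference, cocaine minus saline, of the tested members of each gene family (circles), with bars from the lower to the upper quartile of members and triangles for the median after centring by gene length. The semaphorin, Slit and calcium channel families lie above 0 and ribosomal and respiratory families below -0.3, and most medians move toward 0 after centring.

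The accumbens markers themselves mostly differed downward. Their median was -0.26 (-0.19 after centring by length), and 2 of 14 were lower, Tac1 and Ppp1r1b. Their summed level, mostly from Penk and Ppp1r1b, was 2111 to 2213 RPKM in saline and 1558 to 1646 RPKM in cocaine. Tac1, the substance P precursor, had 33.7, 31.8 and 31.4 RPKM in saline and 17.6, 19.2 and 20.3 RPKM in cocaine (-0.75 ± 0.07). In bulk tissue, fewer cells of a type and less RNA per cell cannot be told apart.

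Markers of both medium spiny neuron classes were negative in 8 of 10 members. These lists share Drd1a, Tac1, Pdyn, Drd2, Adora2a, Penk and Gpr6 with the accumbens markers, so they are not separate from them. The 10 indirect-pathway (D2) genes had a median of -0.32 and summed levels of 1166 to 1253 RPKM in saline and 895 to 955 RPKM in cocaine, with no call. Penk, the enkephalin precursor that makes up most of that sum, had 975, 1030 and 1049 RPKM in saline and 800, 795 and 729 RPKM in cocaine (-0.39 ± 0.05), and the adenosine receptor gene Adora2a had 86.5, 93.1 and 94.6 RPKM in saline against 64.1, 64.0 and 64.4 RPKM in cocaine (-0.51 ± 0.04). The 10 direct-pathway (D1) genes had a median of -0.14, 1 call (Tac1), and sums of 207 to 221 and 180 to 181 RPKM. Drd1a overlapped between libraries, with 38.9, 43.1 and 47.6 RPKM in saline and 40.6, 38.6 and 39.3 RPKM in cocaine. After centring by length the medians were -0.13 and -0.026, and whether the classes differ from each other was not tested.

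Immediate-early and activity-regulated genes had 1 higher and 5 lower of 30, with a median of -0.19 (-0.12 after centring by length). Arc, a synaptic regulator of AMPA receptors, had 15.4, 16.1 and 15.4 RPKM in saline and 8.74, 9.18 and 10.6 RPKM in cocaine (-0.69 ± 0.08), and Gadd45b had 4.15, 4.53 and 7.06 RPKM against 2.55, 2.33 and 2.70 RPKM (-0.89 ± 0.22). These 2 kept the call in every lane left out; the other 4 did not, among them Fos (-0.71, or -0.57 without saline replicate 3), Nr4a1 (-0.63, or -0.54 without cocaine replicate 2), Gadd45g (-0.61, or -0.46 without cocaine replicate 3 and -0.53 without saline replicate 2) and Klf4, the single higher one (0.73, or 0.46 without saline replicate 2). Klf4 averaged under 1 RPKM in saline and passed the filter only through the libraries in which it was high. Centring by length ended the calls of Fos (-0.54), Nr4a1 (-0.48) and Gadd45g (-0.29), and scaling to the 75th percentile those of Nr4a1 (-0.56) and Gadd45g (-0.54).

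Of 18 endothelial and mural markers 6 were higher, 0 lower and 12 without a call, with a median of 0.43 (0.48 after centring by length), and their summed level was 109 to 113 RPKM in saline and 139 to 148 RPKM in cocaine. The angiopoietin receptor gene Tek had 1.85, 1.37 and 1.49 RPKM in saline and 3.06, 2.65 and 3.11 RPKM in cocaine (0.74 ± 0.12), and the TGF-beta co-receptor gene Eng had 6.13, 7.24 and 6.46 RPKM against 10.8, 9.60 and 11.7 RPKM (0.65 ± 0.10). The VEGF receptor gene Flt1 (0.80) and Vwf (0.79) were called too but not after centring by length (0.50 and 0.48). Cdh5 (0.70) and Tie1 (0.63) lost the call without saline replicate 3 (0.52) and saline replicate 2 (0.54) respectively.

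Erythrocyte genes had 1 higher, 1 lower and 6 without a call of 8 tested, with a median of 0.39. After centring by length the median was 0.63, with 5 higher and 0 lower. Their summed level was 554 to 595 RPKM in saline and 658 to 740 RPKM in cocaine. Haemoglobin Hba-a1 had 131, 146 and 130 RPKM against 187, 160 and 184 RPKM, with lanes apart and no call, and its near-identical copy Hba-a2 makes the split between them uncertain. The lower call of this list was kept whichever lane was left out, and the higher one was not: it was Alas2, of haem synthesis, at 0.60 (0.46 without cocaine replicate 1, 0.53 without saline replicate 2 and 0.58 without saline replicate 3, each without a call). How far vessel and blood content take part in the differences of other genes was not tested. Septal and hypothalamic markers had a median of -0.44 with 3 of 15 lower: Oxt had 130, 129 and 102 RPKM in saline and 82.0, 53.4 and 60.0 RPKM in cocaine (-0.90 ± 0.22), Pmch differed by -1.73 ± 0.35, and Pomc by -1.02 ± 0.50, which lost its call after centring by length (-0.70). Of these 3 genes, 1 other than Oxt averaged under 1 RPKM in cocaine and passed the filter only through the libraries in which it was high. The summed level of the septal and hypothalamic list was 253 to 288 RPKM in saline and 170 to 208 RPKM in cocaine. The part of these genes in other results was not tested.

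Of the glial lists, all 10 oligodendrocyte precursor genes were positive (median 0.29, Tnr called), and the 14 myelin and 13 astrocyte genes had no call (medians -0.043 and -0.15). Microglial genes were negative in 12 of 14 members (median -0.14) with 1 lower, Cd68, at -0.59, which lost its call without cocaine replicate 2 (-0.37), on dropping saline replicate 1 (-0.57) or 3 (-0.57), and after centring by length (-0.31). Choroid plexus and ependymal genes were negative in 7 of 8 members (median -0.22), with 1 higher and 1 lower. The lower one, Ccdc153 (-0.60), lost its call without saline replicate 2 (-0.47), without cocaine replicate 1 (-0.39) and after centring by length (-0.32). The list summed to 70 to 79 RPKM in saline and 67 to 73 RPKM in cocaine, although the choroid plexus product Ttr was higher, with 2.93, 1.29 and 2.90 RPKM against 5.26, 10.0 and 7.24 RPKM (1.5 ± 0.40). Fn1, which encodes fibronectin, was the one call among 7 meningeal and fibroblast genes, at 2.16, 2.38 and 2.83 RPKM against 6.32, 6.45 and 6.35 RPKM (1.22 ± 0.10).

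**Figure D4:**
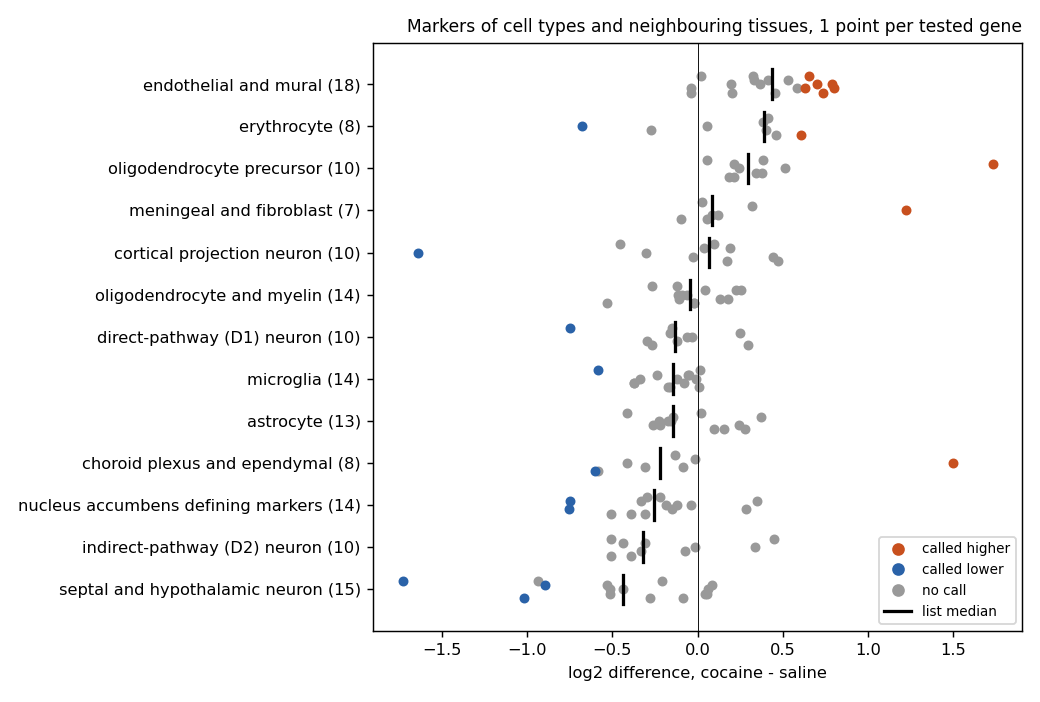
Log2 difference, cocaine minus saline, of each tested marker gene (points) of 13 cell type lists, with the list median (bar) and the number tested in brackets. Endothelial genes lie mostly right of 0 and accumbens, D2 and septal or hypothalamic genes mostly left of it, while Slc17a7 at -1.64 lies far from the other cortical genes.

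Genes called higher and genes called lower differed in length. The median model length was 4348 bp for genes called higher, 1270 bp for genes called lower and 3531 bp for all genes compared. In the shortest decile of genes (42 to 1179 bp) the median difference was -0.28, with 65 higher (4.62%) and 152 lower (10.8%). In the longest decile (8044 bp and more) it was 0.25, with 116 higher (8.26%) and 1 lower. Higher calls were thus above their share among all genes, 2.93%, at both ends of length. Across genes, which are not independent replicates, the rank correlation of difference with length was 0.464. Among 12732 genes with a coding length, the shortest decile had a median of -0.30 (17 higher, 115 lower) and the longest one of 0.26 (121 higher, 2 lower).

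Level had a smaller relation of the opposite sign: the lowest decile had a median of 0.072 with 75 higher and 34 lower, and the most abundant decile one of -0.21 with 7 higher and 56 lower (-0.076 after centring by length). The 100 most abundant genes held 20.2% of summed RPKM in saline and 18.6% in cocaine. Centring differences within 20 bins of length gave 477 higher and 98 lower, of which 293 and 77 were among the 411 and 338. It used model length, which was on median 1.06 times the longest GENCODE transcript but far from it for some genes. Length and library are not separable here, since each group is 1 library, and what gave rise to the relation was not tested.

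**Figure D5:**
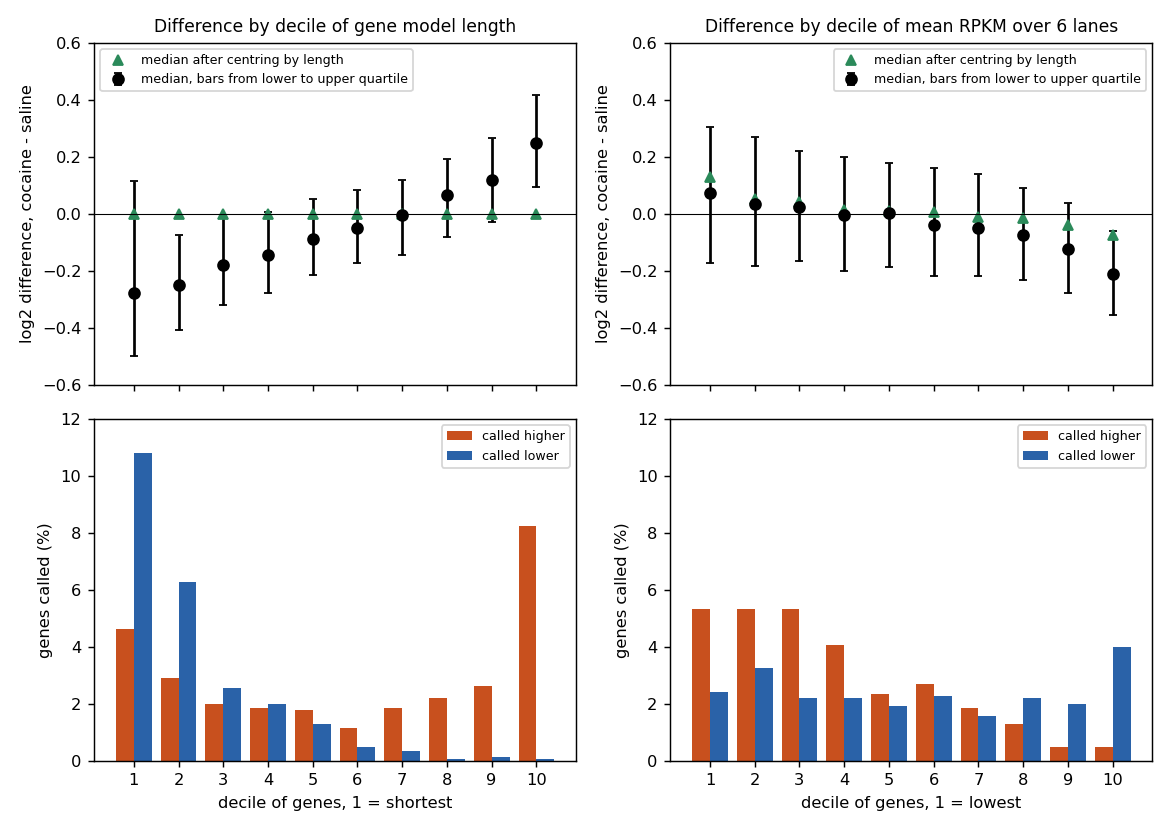
Upper plots give the median log2 difference (circles, bars from lower to upper quartile; triangles after centring by length) in deciles of gene model length and of mean RPKM, and lower plots the percent of genes called higher and lower in each decile. The median rises from -0.28 in the shortest decile to 0.25 in the longest, and calls lower in cocaine lie mostly in the 2 shortest deciles.

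Because cAMP signalling through CREB is the textbook route from dopamine receptors to genes, promoters were searched for the cAMP response element, TGACGTCA, on both strands over the 250 bases before the start (RefSeq, GRCm38.p6, genes with 1 listed start). Promoters were matched for 228 of the 411 higher genes (55.5%), 206 of the 338 lower genes (60.9%) and 8465 genes of the 14051 compared (60.2%), so a comparison of the sets is void for lack of matches. The element stood in 8 matched promoters of higher genes (3.51%), 9 of lower genes (4.37%) and 245 of all (2.89%). To show the element in genes that differed in either direction, windows around it are given for 4 of the 8 higher and 5 of the 9 lower genes, chosen after their values were seen, with the element in capitals and each sequence read 5′ to 3′ on the gene's strand.
Peg3, higher, chr7:6730581-6730606, minus strand: tgactccgtTGACGTCAactccgtgc
Htt, higher, chr5:34761717-34761739, plus strand: ccgccggcaTGACGTCAcgggac
Flt1, higher, chr5:147726076-147726101, minus strand: gggacccctTGACGTCActggaagga
Fstl4, higher, chr11:52764620-52764645, plus strand: cccggagggTGACGTCAcgggctccg
Snrpg, lower, chr6:86371482-86371507, plus strand: gcgcggcggTGACGTCAgacaccagc
Ndufb2, lower, chr6:39592542-39592564, plus strand: gcgacgcagTGACGTCAcgggcc
Cartpt, lower, chr13:99900779-99900804, minus strand: ggcgggcatTGACGTCAaacggcagc
Zfp457, lower, chr13:67306452-67306477, minus strand: catcgcctgTGACGTCAtcagaaaga
Larp7, lower, chr3:127553454-127553479, minus strand: caacttaagTGACGTCAtcaagcagg

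Genes with the same 8 bases thus differed in both directions. Cartpt, the precursor of the peptide CART that psychostimulants are known for regulating in the striatum, had 58.5, 50.6 and 52.3 RPKM in saline and 33.7, 30.6 and 33.6 RPKM in cocaine (-0.71 ± 0.08, or -0.39 after centring by length, without a call). Htt, the huntingtin gene, had 9.38, 9.37 and 9.42 RPKM against 14.8, 15.4 and 14.7 RPKM (0.64 ± 0.02, or 0.34 after centring by length, without a call). Fstl4 (0.76 ± 0.14) kept its call in both checks, while Larp7 (-0.69 ± 0.17) lost it without saline replicate 2 (-0.57), without cocaine replicate 3 (-0.58) and after centring by length (-0.52). A match is only a run of letters: it does not show that CREB was bound there.

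Levels of some of these genes in the withdrawal library are given as means ± SD over its 3 lanes. Bmpr2 had 15.2 ± 0.81 RPKM, Sv2c 26.7 ± 1.5 RPKM and Slc17a7 3.97 ± 0.58 RPKM, so all 3 lay on the cocaine side of their saline values. Ttr (0.949 ± 0.36 RPKM) lay below both libraries. The rest of the 12 largest increases had withdrawal means well above saline, among them Tnr (19.0 ± 0.51 RPKM) and Kcnq3 (17.9 ± 2.0 RPKM). The 12 largest decreases all had withdrawal means below saline. Adora2a, which had no call, stood at 90.7 ± 2.3 RPKM, near its saline level of 91.4 ± 4.3 RPKM. Hes6 (17.4 ± 3.4 RPKM) and Ppp1r1b (498 ± 10 RPKM) lay between saline and cocaine. Any comparison of withdrawal with either library shares that library with the values above, so these are levels set side by side and not a further check.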

How the data were processed

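The authors deposited RPKM for each lane and a composite RPKM for each library; read totals come per the file headers. The submitters' processing notes name Bowtie 0.12.7 and the mm9 build, while the counter and annotation are not given in the sources used here. Each library held pooled RNA of 8 mice and was run in 3 lanes, per the labels' protocols. Lane values are multiples of 1/37 of a read once lane total and gene length are taken out, which gave the gene model lengths and means that reads are not whole, so no count test was run. Python 3.11.15 with numpy 2.4.6 and pandas 2.3.3 was used. Values became log2(RPKM + 0.5), on which low genes change less than they do in RPKM, averaged over lanes, for genes of at least 1 RPKM. Genes just under the filter were Mir1198 and Ankrd34c (0.999 and 1.00 RPKM) and just over it 4930405A21Rik and Creb3l1. Calls needed a 1.5-fold difference and lanes that did not overlap. The call rule was checked on simulated data. Alternatives were the pseudocount, filter, size limit, lane condition, scaling, composite values, centring within 20 bins of length, the lane number as a block, and dropping each lane in turn.

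The genes, the 79 lists and the rules were chosen with earlier results of these data known, so counts in a list are descriptions. The pattern for ribosomal protein symbols was narrowed after values were seen, to leave out the Rps6k kinases. Named genes were the 12 largest called differences in each direction at 3 RPKM or more and the 10 most abundant called genes in each direction, both without predicted or unnamed models, up to 4 called members of each list, and the accumbens markers. Kcnn3, Kcna2, Kcna3, Kcnh5, Kcnj6, Htr1b, Eng, Tie1, Nr4a1, Gadd45g, Hba-a1, Hba-a2, Ndufs5, Htt, Fstl4, Cartpt and Larp7 lie outside that rule and were chosen after their values were seen. A few genes among those counted are not reported here by name. Sequences are from RefSeq; gene lengths were compared with GENCODE M21, another build than the files', so gene coordinates are given only for the promoter windows.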

Additional observations from a re-analysis of the deposited data

How the results depend on the processing

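The 411 genes higher and 338 lower in cocaine became 182 and 217 with a filter of 5 RPKM, which leaves 9492 genes, 1374 and 1703 with a size limit of 25%, and 112 and 34 with one of 2-fold. Scaling to the same 75th percentile gave 538 higher and 204 lower, and centring within 20 bins of gene length 477 higher and 98 lower; the cause was not tested. Without a filter there were 513 and 451, without the lane condition 503 and 450, with pseudocounts of 0.1 and 1 526 and 409, and 334 and 264, and with composite values 406 and 325. Leaving out 1 lane gave 445 to 502 higher and 384 to 464 lower, since fewer lanes overlap less often. Same-numbered lanes did not deviate together (correlations of -0.013, -0.051 and -0.0063), and with the lane number as a replicate block 447 genes were higher and 381 lower. Of 174 called genes among 226 examined singly, none changed sign in any of these settings; 85 lost the call on centring by length and 29 on scaling to the 75th percentile. Depth limits genes near 1 RPKM most, and with 1 pooled library per group no setting replaces a biological replicate.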
